A study of Mus musculus with 8 samples.

Results

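The 30 genes described here make cholesterol and fatty acids or control their making: SREBP regulators, sterol enzymes and fatty acid enzymes. They were picked out by gene name from a fixed list, which was drawn up with earlier results of these data known, and every one of them was on the array. They were read by 46 probes, out of 55698 probes with 34834 gene names. The cells were B16, a mouse melanoma line that makes pigment, grown in high glucose medium with 5% fetal bovine serum. There were 4 groups of 2 biological replicates, each hybridised to 1 array in 1 colour. The control carried the time label 0 h. A pair of groups had received SEMA3E, a semaphorin that cells secrete and that signals through plexin D1, and were taken after 2 h and after 8 h. The last group had received cytochalasin D and was taken after 8 h. Cytochalasin D caps actin filaments and stops their growth. The labels give no dose, and the control is also described as non-targeted, with no further detail.

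Cells build cholesterol from acetyl-CoA in a long chain of enzymes. The mevalonate enzymes make isoprenoid units, and the squalene and sterol enzymes join these into squalene, close it into a ring and trim it to cholesterol. Fatty acid synthesis starts from the same acetyl-CoA. Both chains are under the control of the SREBP transcription factors, which are held in the endoplasmic reticulum by SCAP and the INSIG proteins while sterol is plentiful and are cut free when it runs low. Cells in serum also take up cholesterol from lipoproteins.

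SREBP binds the sterol regulatory element, and the promoters it acts on often also hold a CCAAT box, which the factor NF-Y binds. Promoter windows of 250 bases before to 50 bases after a gene's start were available from RefSeq (GRCm38.p6) for 23 of the 30 genes. They were searched on both strands for TCACNCCAC, the core of the sterol regulatory element, for CCAAT, and for the E-box CACGTG. None of these motifs holds another. TCACNCCAC was found in 1 gene, Hmgcs1, and in 1.44% of all 27025 genes with a window. CCAAT was found in 19 of the 23 genes and in 41.1% of all genes, or in 64.5% of the windows of these genes against 37.4% of all windows. CACGTG was found in 5 genes and in 8.09% of all genes. A match is a description of the letters in the window and no evidence of binding. The first of the 4 sequences below is that of Hmgcs1, shown as the only window with the sterol core, and the others are those of Nsdhl, Lss and Tm7sf2, the sterol enzymes with the largest differences between the 8 h treatments. Each is the 250 bases before the gene's start, 5′ to 3′ on the gene's strand, with TCACNCCAC and CCAAT in capitals (ATTGG where CCAAT lies on the other strand).
Hmgcs1, chr13:119690101-119690350, plus strand: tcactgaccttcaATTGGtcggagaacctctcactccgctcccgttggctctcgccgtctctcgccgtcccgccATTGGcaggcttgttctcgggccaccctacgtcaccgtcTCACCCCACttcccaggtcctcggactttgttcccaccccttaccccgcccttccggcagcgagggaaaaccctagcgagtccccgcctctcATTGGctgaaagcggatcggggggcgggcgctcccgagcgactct
Nsdhl, chrX:72918271-72918520, plus strand: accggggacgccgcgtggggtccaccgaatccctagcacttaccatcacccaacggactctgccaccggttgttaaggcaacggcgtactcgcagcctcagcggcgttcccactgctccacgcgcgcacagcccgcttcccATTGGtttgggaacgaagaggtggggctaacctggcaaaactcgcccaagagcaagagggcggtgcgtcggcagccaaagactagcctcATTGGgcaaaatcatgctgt
Lss, chr10:76531355-76531604, plus strand: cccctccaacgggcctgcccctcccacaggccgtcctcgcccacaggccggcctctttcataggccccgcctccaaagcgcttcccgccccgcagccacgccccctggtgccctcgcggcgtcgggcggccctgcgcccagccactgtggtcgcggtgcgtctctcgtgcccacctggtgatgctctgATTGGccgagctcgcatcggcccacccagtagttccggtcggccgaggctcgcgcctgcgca
Tm7sf2, chr19:6067851-6068100, minus strand: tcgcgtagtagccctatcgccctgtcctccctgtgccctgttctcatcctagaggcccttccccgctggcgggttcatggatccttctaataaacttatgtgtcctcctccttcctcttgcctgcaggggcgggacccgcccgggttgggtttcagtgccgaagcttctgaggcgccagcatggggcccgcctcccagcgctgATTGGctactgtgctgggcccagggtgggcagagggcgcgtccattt
In Hmgcs1 the sterol core began at position -137 from the gene's start, between CCAAT boxes at -176 and -45. In Nsdhl the CCAAT boxes lay at -109 and -20, with 2 more after the start at 8 and 34 that are not shown. In Lss the only one lay at -62.

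Levels are log2 of the processed signal relative to the array's 75th percentile of detected probes, so that a level of 0 is that percentile and a difference of 1 is 2-fold. Between 37.75% and 48.22% of spots were well above background on an array. In signal the arrays were uneven: the 75th percentile over spots lay at 59.33, 61.14 and 66.76 on both SEMA3E 2 h arrays and the second cytochalasin D array, and from 111.0 to 154.3 on the others. The second SEMA3E 2 h array carried 214 outlier spots against 6 to 24 elsewhere. Negative control spots had a mean signal of 51.62 on the second SEMA3E 8 h array and from 28.1 to 32.41 on the others. Control replicate 1 correlated best with SEMA3E 2 h replicate 1, and control replicate 2 with cytochalasin D replicate 1, rather than with each other. The 8 arrays lay on 1 slide and the arrays of a group were neighbours, so effects of place and of group cannot be told apart. All 7 melanocyte markers were above background on all 8 arrays and the 4 adipocyte markers on none. Of the markers of other cells, 2 of 4 for fibroblasts, 2 of 4 for macrophages, 2 of 3 for endothelium and 0 of 2 for keratinocytes were above background on all 8 arrays. Their summed signal before scaling ran from 138.4 to 371.6 for fibroblasts, from 149.5 to 362.1 for macrophages and from 58.08 to 205.5 for endothelium, highest on a SEMA3E 8 h array in each case. Above background on all 8 arrays were Col1a1 and Col1a2 for fibroblasts, Cd68 and Csf1r for macrophages, and Pecam1 and Kdr for endothelium. Pdgfra and Cdh5 were above it on no array, Ptprc on 1, Dcn on 2 and Adgre1 on 3. The part of such cells in the results was not tested. In RNA from whole cultures, fewer cells of a kind and less RNA per cell cannot be told apart.

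All 30 genes were well above background on all 8 arrays, and all were tested among 18025 genes. With limma's moderated test and Benjamini-Hochberg adjustment over all genes, none of the 30 was called at an adjusted p under 0.05 in any of the 5 comparisons. The lowest adjusted p of a member was 0.404, and the median standard error of a difference over all genes was 0.34. What follows is therefore a description of levels and of differences with their errors, not of established changes. The plot of levels by array shows the 30 genes at once.

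**Figure D1:**
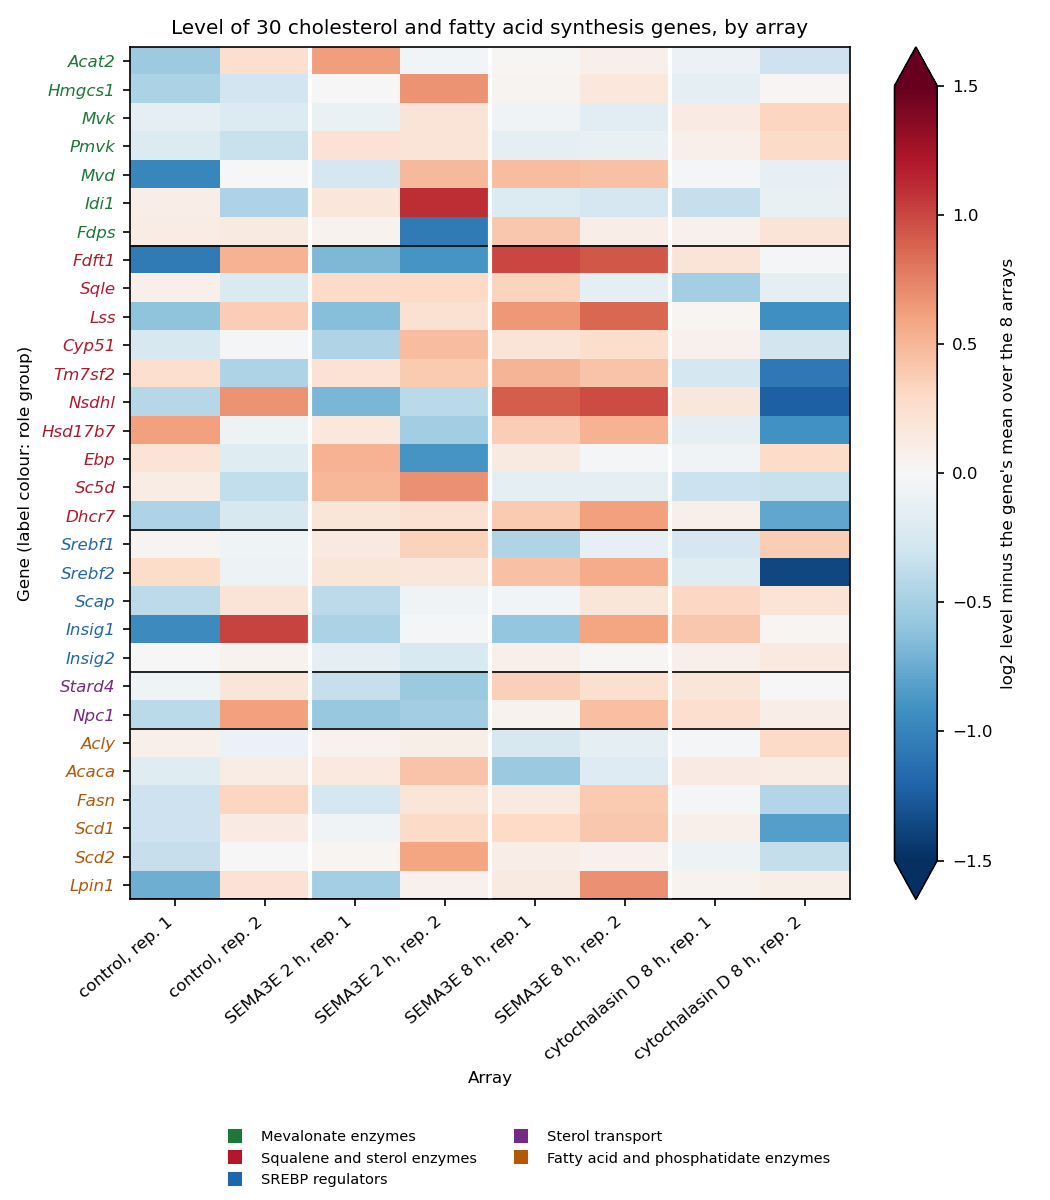
Level of each of the 30 genes on each of the 8 arrays (columns), as log2 minus the gene's mean over the arrays, with genes in rows by role group. Fdft1, Lss, Nsdhl and Dhcr7 are red on both SEMA3E 8 h arrays, while Srebf2, Nsdhl, Lss, Tm7sf2, Hsd17b7 and Dhcr7 are blue on the second cytochalasin D array.

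The treatments at matched time were compared first, cytochalasin D 8 h against SEMA3E 8 h. Most sterol enzymes and the sterol regulator Srebf2 had lower levels with cytochalasin D, whereas acetyl-CoA carboxylase, ATP citrate lyase and the mevalonate kinases had slightly higher ones. Second tested probes of ATP citrate lyase (Acly) and mevalonate kinase (Mvk) went the other way, at -0.86 and -0.29. Those of acetyl-CoA carboxylase (Acaca) and Pmvk gave 0.33 and 0.17. Of the 30 genes 0 were called, where 0.00555% of all genes were. At an unadjusted p under 0.05 there were 6, all lower, against 11% of all genes in either direction. The only gene called in this comparison, and in SEMA3E 8 h against control, was Catsperg2, which is no member. Both cytochalasin D arrays lay below both SEMA3E 8 h arrays for 18 of the 30 genes and above them for 6, against 32.7% and 19.6% of all genes. The median difference over the 30 was -0.22, beside -0.13 over all genes. Scaled by the median of all probes, which put the median of all genes at 0.85, the median over the 30 was 0.76.

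SEMA3E 8 h against control asked what the ligand had done by the later time, with time labels of 8 h and 0 h. Of the 30 genes 24 lay above 0, or 80%, beside 63.34% of all genes. Fdft1, Mvd, Lss and Dhcr7 led the 30, and the fatty acid enzymes Acaca and Acly lay below 0. None was called, against 0.00555% of all genes, and 3 had an unadjusted p under 0.05, against 6.14%. Both SEMA3E 8 h arrays lay above both controls for 13 genes and below for 3, against 25.1% and 12.3% of all genes. The median was 0.19, beside 0.12 for all genes. It was -0.03 with the 75th percentile of all probes as the scale and -0.98 with their median, where all genes moved to -0.10 and -1.04. Without control replicate 2 the median was 0.39.

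SEMA3E 2 h against control asked for the early response. The mevalonate enzymes Hmgcs1, Mvk, Pmvk and Idi1 and the sterol enzyme Sc5d had higher levels on both SEMA3E 2 h arrays, and both sterol transport genes lower ones. A second probe of the transport gene Stard4 went the other way, at 1.31. Of the 30 genes 0 were called, against 0% of all genes, and 2 had an unadjusted p under 0.05, against 9.48%. Groups did not overlap for 10 genes that were higher and 4 that were lower, against 24.5% and 15.1% of all genes. The median was 0.11, beside 0.06 for all genes. Scaled by the median of all probes it was -0.48, beside -0.53. Without SEMA3E 2 h replicate 1 it was 0.34, without control replicate 2 it was 0.26, and without control replicate 1 it was 0.026.

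Cytochalasin D 8 h against control, again with unequal time labels, left the genes near 0 as a group. Their median was 0.03, beside 0.03 for all genes. The mevalonate kinases Mvk and Pmvk lay above the controls on both arrays, and Srebf2 and Hsd17b7 below. None of the 30 was called, against 0% of all genes, and 0 had an unadjusted p under 0.05, against 2.44%. Groups did not overlap for 5 genes that were higher and 2 that were lower, against 15.9% and 13% of all genes. Without control replicate 1 the median was -0.10, and scaled by the median of all probes it was -0.15, as was that of all genes.

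SEMA3E 8 h against SEMA3E 2 h followed the ligand over time, on arrays whose overall signal differed by more than 2-fold. Of the 10 squalene and sterol enzymes 8 lay above 0, as did both transport genes, while Sqle, Sc5d, Idi1, Srebf1 and Acaca lay below. Over all genes this difference went with mean level. Its median was 0.29 below -4, 0.19 from -4 to -2 and -0.19 above 0. Members in these bands had medians of 0.63, 0.31 and -0.23. Sqle, Sc5d, Idi1 and Acaca were in the brightest band, and Srebf1 in the dimmest. Fdps, Ebp and Scap, also in the brightest band, differed by 0.75, 0.24 and 0.29. The part of probe signal was not tested. No member was called, against 0% of all genes, and 5 members had an unadjusted p under 0.05, against 11.6%. Both 8 h arrays lay above both 2 h arrays for 14 genes and below for 6, against 27.9% and 22.7% of all genes. The median over all members was 0.24, beside 0.09 for all genes. It was 0.08 without SEMA3E 2 h replicate 1 and -0.33 with the median of all probes as the scale, where all genes lay at -0.48. The plot of role groups by comparison sets these medians side by side. The 5 comparisons share arrays, the 3 with control all sharing the controls, so their values are not independent of each other.

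**Figure D2:**
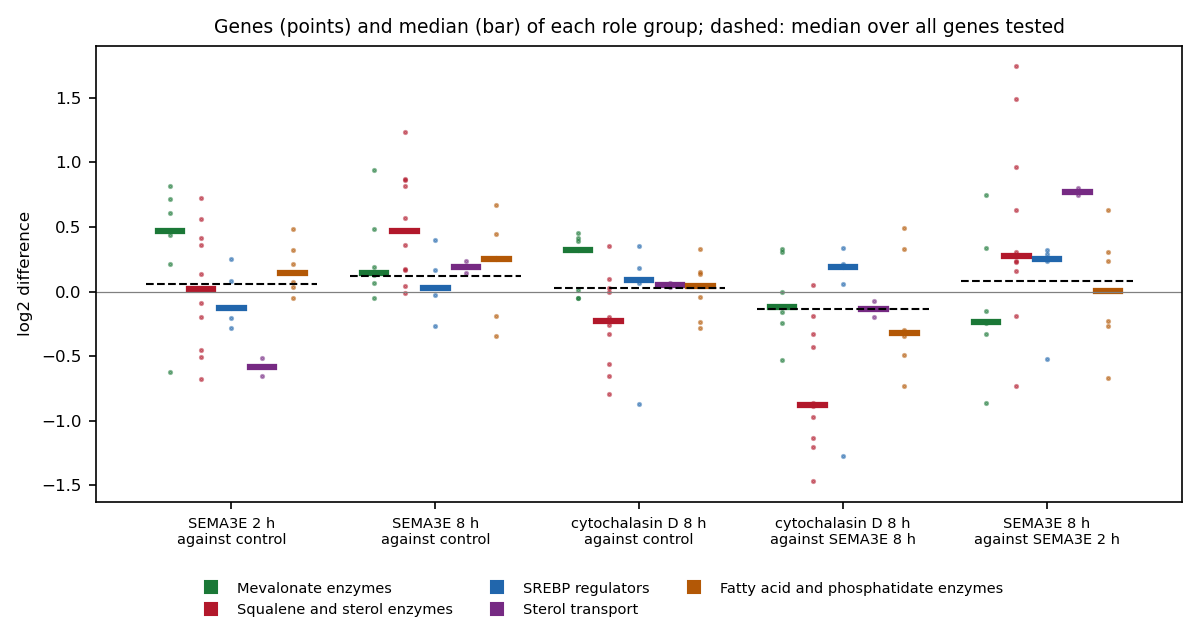
Log2 difference of each gene (points) and the median of each role group (bars) in the 5 comparisons, with the median of all genes tested (dashed). The squalene and sterol enzymes lie furthest from the dashed line in cytochalasin D 8 h against SEMA3E 8 h, at -0.88 beside -0.13, and the mevalonate enzymes stand at 0.47 beside 0.06 in SEMA3E 2 h against control. Scaling by the median of all probes shifts genes and dashed line together, and turns the sign of both of these medians.

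The squalene and sterol enzymes numbered 10. In cytochalasin D 8 h against SEMA3E 8 h their median difference was -0.88, where that of all genes was -0.13. For 9 of the 10 both cytochalasin D arrays lay below both SEMA3E 8 h arrays, as they did for 32.7% of all genes, and Ebp, a sterol isomerase, was the exception. Relative to all genes the median stayed below 0 in all 21 alternatives, between -0.98 and -0.26. Some of these cannot move a difference, namely changes of fit and leaving out an array of neither group compared. Scaled by the median of all probes, 7 of the 10 lay above 0 and the median was 0.11, beside 0.85 for all genes. It was -0.45 after normexp background correction and -0.41 in the authors' deposited table. Leaving out arrays gave -1.15 without cytochalasin D replicate 1 and -0.60 without replicate 2. In SEMA3E 8 h against control the median was 0.47, beside 0.12 for all genes, with 9 of 10 above 0, as were 63.34% of all genes, and 6 above both controls on both arrays, as were 25.1%. That median was 0.25 with the 75th percentile of all probes and -0.69 with their median, and it stayed above that of all genes except where no filter on dim probes was set.

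Nsdhl, a decarboxylase that removes methyl groups from sterols, had levels of -5.80 and -4.70 in the controls, -6.06 and -5.78 at SEMA3E 2 h, -4.47 and -4.39 at SEMA3E 8 h, and -5.20 and -6.59 with cytochalasin D. The SEMA3E 8 h arrays were the highest 2 of the 8 and the controls spanned more than 1 log2 unit. Cytochalasin D 8 h minus SEMA3E 8 h was -1.47 ± 0.52 (SE, n = 2 per group, limma adjusted p = 0.439), and SEMA3E 8 h minus SEMA3E 2 h was 1.49 ± 0.52 (limma adjusted p = 0.411). A second probe of Nsdhl, above background on 5 of 8 arrays, gave -1.46 for the first of these and 0.81 for the second.

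Tm7sf2, a sterol reductase, read -3.59 and -4.31 in the controls, -3.63 and -3.45 at SEMA3E 2 h, -3.34 and -3.42 at SEMA3E 8 h, and -4.11 and -4.92 with cytochalasin D. Cytochalasin D was below SEMA3E on both arrays and overlapped the controls. The difference between the 8 h treatments was -1.13 ± 0.37 (limma adjusted p = 0.430), and 0.45 in the authors' deposited table, the only alternative of opposite sign, while a second probe, above background on 3 arrays, gave -1.83.

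Lss, which closes squalene epoxide into the sterol ring, read -4.84 and -3.86 in the controls, -4.87 and -4.001 at SEMA3E 2 h, -3.58 and -3.37 at SEMA3E 8 h, and -4.21 and -5.15 with cytochalasin D. Its SEMA3E 8 h arrays lay above all 6 others. SEMA3E 8 h minus control was 0.87 ± 0.48 (limma adjusted p = 0.854), and cytochalasin D minus SEMA3E 8 h was -1.21 ± 0.48 with an unadjusted p of 0.0389.

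Dhcr7, which makes the last reduction to cholesterol, read -2.71 and -2.48 in the controls, -2.06 and -2.02 at SEMA3E 2 h, -1.84 and -1.62 at SEMA3E 8 h, and -2.17 and -3.03 with cytochalasin D. Both SEMA3E groups lay above both controls, with no overlap. SEMA3E 8 h minus control was 0.86 ± 0.33 (limma adjusted p = 0.768), and cytochalasin D minus SEMA3E 8 h was -0.87 ± 0.33 (limma adjusted p = 0.445). Each of these was of opposite sign in 1 of 21 alternatives, at -0.30 and 0.12.

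Fdft1, squalene synthase, read -4.27 and -2.69 in the controls, -3.89 and -4.09 at SEMA3E 2 h, -2.21 and -2.28 at SEMA3E 8 h, and -3.01 and -3.24 with cytochalasin D. The controls alone differed by 1.58 log2 units. SEMA3E 8 h minus SEMA3E 2 h was 1.75 ± 0.48 (limma adjusted p = 0.404), and it lay between 1.18 and 1.85 in the 21 alternatives. SEMA3E 8 h minus control was 1.24 ± 0.48 (limma adjusted p = 0.772), and 0.45 without control replicate 1.

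Hsd17b7, a sterol ketoreductase, read -3.67 and -4.36 in the controls, -4.13 and -4.81 at SEMA3E 2 h, -3.91 and -3.77 at SEMA3E 8 h, and -4.42 and -5.19 with cytochalasin D. Both cytochalasin D arrays lay below both controls. The difference from control was -0.79 ± 0.40 (limma adjusted p = 0.9997), and that from SEMA3E 8 h was -0.97 ± 0.40 with an unadjusted p of 0.0435. One of its other probes gave -0.60 against control and -1.21 against SEMA3E 8 h, and the remaining probe gave 0.07 and -0.41.

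Sc5d, a desaturase that acts just before Dhcr7, read 0.19 and -0.29 in the controls, 0.58 and 0.77 at SEMA3E 2 h, -0.06 and -0.05 at SEMA3E 8 h, and -0.24 and -0.25 with cytochalasin D. The SEMA3E 2 h arrays were the highest 2 of the 8. SEMA3E 2 h minus control was 0.72 ± 0.27 (limma adjusted p = 0.518), and SEMA3E 8 h minus SEMA3E 2 h was -0.73 ± 0.27 (limma adjusted p = 0.411). Both kept their sign in all 21 alternatives, some of which cannot move a difference. The remaining enzymes Sqle, Cyp51 and Ebp differed between groups by -0.43 to 0.36, with a lowest unadjusted p of 0.183.

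**Figure D3:**
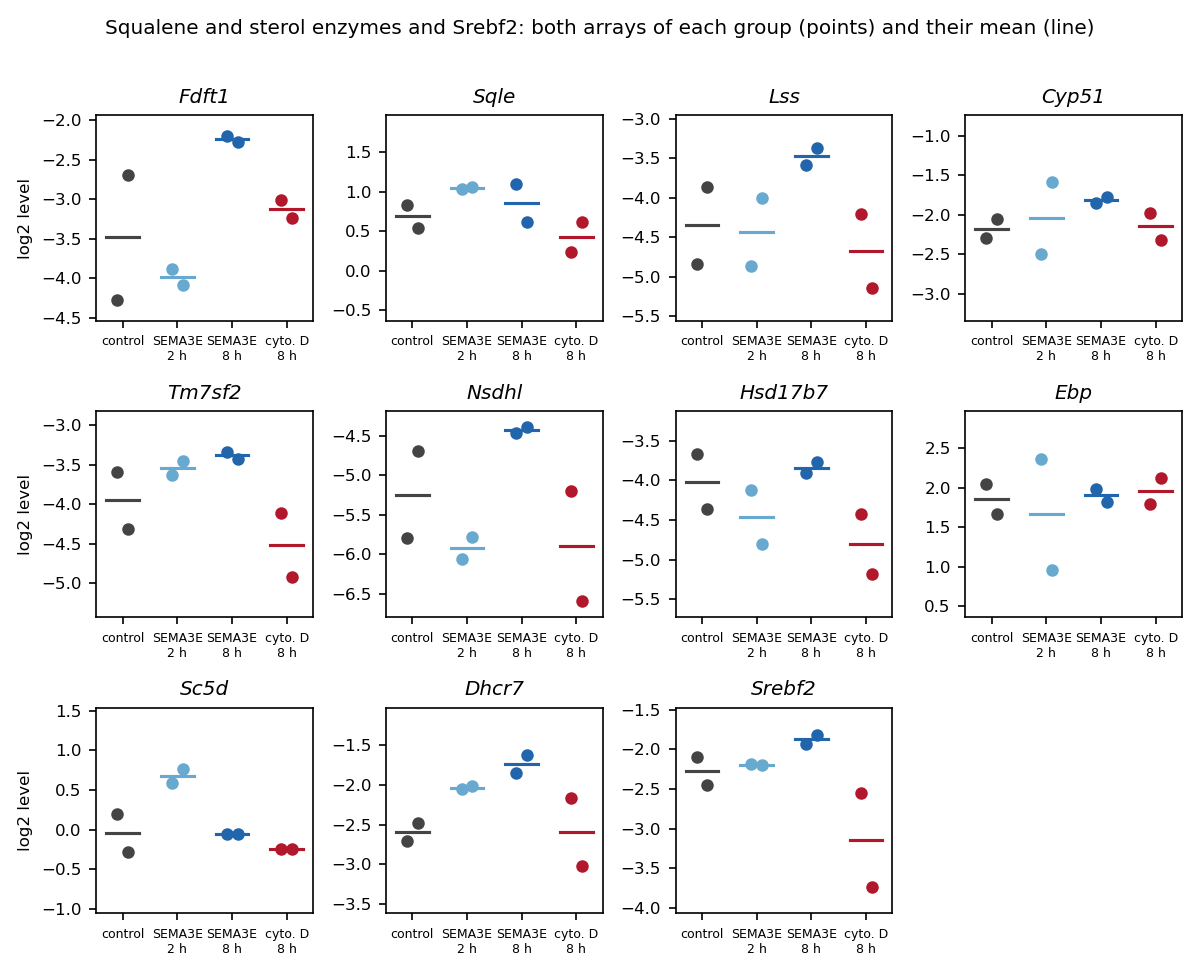
Log2 level of the 10 squalene and sterol enzymes and Srebf2 on both arrays of each group (points) with the group mean (line), each panel spanning the same number of log2 units. For Lss, Nsdhl, Fdft1, Dhcr7, Srebf2 and, only just, Tm7sf2, both SEMA3E 8 h points lie above those of all other groups. The cytochalasin D points of Lss, Tm7sf2, Nsdhl, Hsd17b7, Dhcr7 and Srebf2 are far apart.

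Probe signal and 1 array went with the difference between the 8 h treatments. Probe signal also went with those of SEMA3E 8 h from control and from SEMA3E 2 h. Dim genes as a whole read lower with cytochalasin D: among the 7400 genes with a mean level below -4 the median difference was -0.38, among the 3189 between -4 and -2 it was -0.14, and among the 4063 above 0 it was 0.09. Of the 6 sterol enzymes with the largest differences, Nsdhl, Lss and Hsd17b7 lay in the first band and Tm7sf2, Fdft1 and Dhcr7 in the next. The 8 members in the band from -4 to -2 had a median of -0.80, while the 9 in the band below -4 had -0.34, close to that of the band. The second cytochalasin D array, 1 of the 3 dim arrays, gave the lower value of the pair for Nsdhl, Lss, Tm7sf2, Hsd17b7, Dhcr7 and Srebf2. In SEMA3E 8 h against control the trend ran the other way, with a median over all genes of 0.36 below -4, 0.14 from -4 to -2 and 0 above 0. There the 9 members below -4 had a median of 0.23 and the 8 from -4 to -2 had 0.51. In SEMA3E 8 h against SEMA3E 2 h the trend ran the same way as against control, with the values given above. On the second SEMA3E 8 h array negative control spots read highest. There genes below -4 lay above the first SEMA3E 8 h array by a median of 0.30, and the 9 members below -4 by 0.22. The part of probe signal, or of single arrays, in any of these results was not tested.

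**Figure D4:**
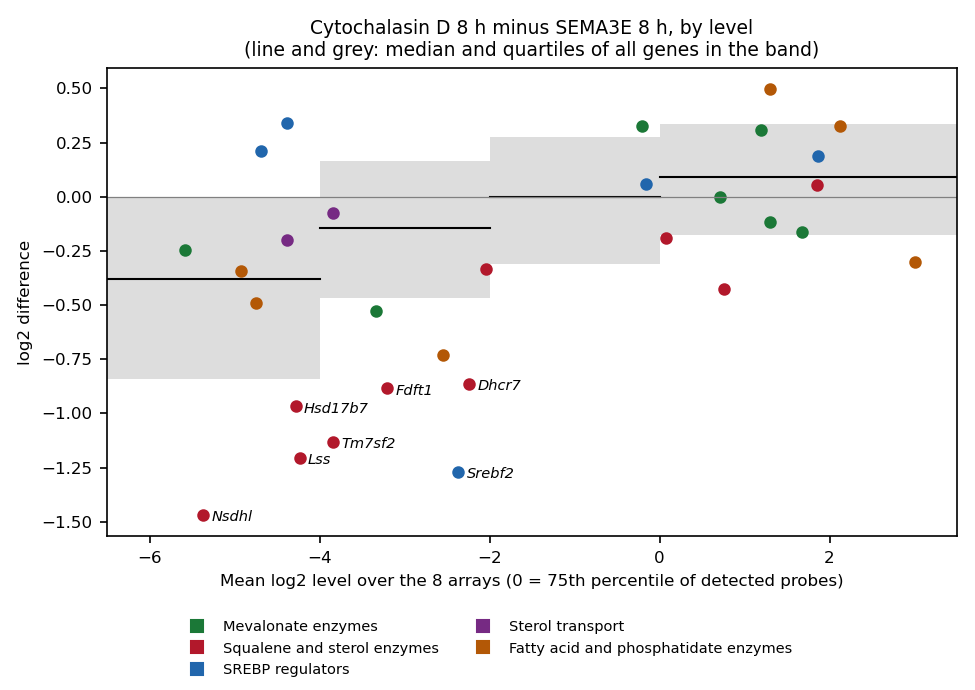
Difference of cytochalasin D 8 h minus SEMA3E 8 h (log2) for the 30 genes against their mean level over the 8 arrays, with the median (line) and the range between quartiles (grey) of all genes in each band of level. The 7 labelled genes, 6 sterol enzymes and Srebf2, lie below the grey area of their band, whose median is -0.38 below a level of -4 and -0.14 from -4 to -2. Labels mark the genes with the largest differences in size, so their place outside the grey area follows in part from that choice.

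The SREBP regulators numbered 5. Their medians lay between -0.13 and 0.26 in the 5 comparisons and no member was called. Srebf2 encodes the SREBP that drives mainly sterol genes, and it had the smallest p of any member in both cytochalasin D comparisons. It read -2.09 and -2.45 in the controls, -2.19 and -2.20 at SEMA3E 2 h, -1.93 and -1.81 at SEMA3E 8 h, and -2.55 and -3.73 with cytochalasin D. Both cytochalasin D arrays were the lowest of the 8, and replicate 2 minus replicate 1 was -1.18. Cytochalasin D minus SEMA3E 8 h was -1.27 ± 0.40 (limma adjusted p = 0.422), a level 2.41-fold lower, and -0.68 without cytochalasin D replicate 2. Cytochalasin D minus control was -0.87 ± 0.40 (limma adjusted p = 0.9997), and -0.28 without that array. Both kept their sign in all 21 alternatives, and a second probe, above background on 4 arrays, gave -1.58 and -0.11.

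Srebf1, which encodes the SREBP that acts mainly on fatty acid genes, read -4.34 and -4.45 in the controls, -4.24 and -4.04 at SEMA3E 2 h, -4.83 and -4.50 at SEMA3E 8 h, and -4.64 and -4.01 with cytochalasin D. Its SEMA3E 8 h arrays lay below both controls and both SEMA3E 2 h arrays. The differences were -0.27 ± 0.30 against control (limma adjusted p = 0.926) and -0.52 ± 0.30 against 2 h (limma adjusted p = 0.478). Its difference between the 8 h treatments, 0.34 ± 0.30 (limma adjusted p = 0.667), was opposite in sign to that of Srebf2.

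Scap, the escort that carries SREBP to be cut, read 1.47 and 2.06 in the controls, 1.46 and 1.81 at SEMA3E 2 h, 1.82 and 2.04 at SEMA3E 8 h, and 2.17 and 2.06 with cytochalasin D. Cytochalasin D minus control was 0.35 ± 0.30 (limma adjusted p = 0.9997), within the spread of the controls. Insig2, 1 of the 2 anchors of SCAP, read -0.17 and -0.11, then -0.31 and -0.39, then -0.08 and -0.14, and -0.08 and -0.02, in the same order of groups. The largest difference of its brightest probe was 0.24 ± 0.23, for SEMA3E 8 h minus SEMA3E 2 h (limma adjusted p = 0.655). A second probe of Insig2, above background on all 8 arrays, gave -0.61 for cytochalasin D against control, where the first gave 0.09. Between the 8 h treatments it gave -0.75, where the first gave 0.06. Insig1, the other anchor and itself a known SREBP target, read -5.65 and -3.68 in the controls, -5.17 and -4.72 at SEMA3E 2 h, -5.27 and -4.11 at SEMA3E 8 h, and -4.29 and -4.66 with cytochalasin D. The 1.97 between its controls was the largest replicate difference of any member, and its standard error of 0.66 exceeded each of its differences, of which the largest was -0.28.

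The mevalonate enzymes numbered 7. In SEMA3E 2 h against control their median was 0.47, beside 0.06 for all genes, and 6 of 7 lay above 0, as did 54.93% of all genes. The median was 0.26 without control replicate 1, and -0.12 with the median of all probes as the scale, beside -0.53 for all genes. Relative to all genes it lay between -0.007 and 0.49 in the 21 alternatives, and below 0 in 1 of them. In the other comparisons the median itself was 0.14 for SEMA3E 8 h and 0.32 for cytochalasin D against control. It was -0.12 between the 8 h treatments and -0.23 for SEMA3E 8 h against 2 h.

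Hmgcs1, which makes HMG-CoA and whose promoter heads the sequences above, read 1.21 and 1.40 in the controls, 1.68 and 2.35 at SEMA3E 2 h, 1.73 and 1.84 at SEMA3E 8 h, and 1.54 and 1.70 with cytochalasin D. The controls were the lowest 2 of the 8 arrays, below every treated array. SEMA3E 2 h minus control was 0.71 ± 0.30 (limma adjusted p = 0.518), or 1.64-fold, and it kept its sign in all 21 alternatives, between 0.12 and 2.95. The highest of these came from the authors' deposited table, which lists control replicate 1 at 260.1 where the brightest probe of the gene read 6384.

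Idi1, an isomerase of the isoprenoid units, read 0.82 and 0.25 in the controls, 0.89 and 1.82 at SEMA3E 2 h, 0.52 and 0.46 at SEMA3E 8 h, and 0.37 and 0.61 with cytochalasin D. SEMA3E 2 h minus control was 0.82 ± 0.37 (limma adjusted p = 0.518), and 0.35 without SEMA3E 2 h replicate 2, the array with many outlier spots. The first SEMA3E 2 h array read close to the first control.

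Mvd, which makes isopentenyl diphosphate, read -4.32 and -3.34 in the controls, -3.59 and -2.86 at SEMA3E 2 h, -2.87 and -2.90 at SEMA3E 8 h, and -3.36 and -3.46 with cytochalasin D. SEMA3E 8 h minus control was 0.94 ± 0.39 (limma adjusted p = 0.802), and 0.45 without control replicate 1. Both SEMA3E 8 h arrays lay above both controls.

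Pmvk and Mvk, the kinases of the pathway, were above both controls on both cytochalasin D arrays. Pmvk read 0.99 and 0.86 in the controls, 1.41 and 1.38 at SEMA3E 2 h, 1.06 and 1.08 at SEMA3E 8 h, and 1.27 and 1.48 with cytochalasin D. Mvk read -0.34 and -0.42, then -0.31 and -0.02, then -0.26 and -0.36, and -0.09 and 0.12. The differences of cytochalasin D from control were 0.45 ± 0.24 for Pmvk and 0.39 ± 0.25 for Mvk (limma adjusted p = 0.9997 for both), and both kept their sign in all 21 alternatives. Of the other members of the group, Acat2, a thiolase, ranged from -6.13 to -4.96 over the arrays. Fdps, which makes farnesyl diphosphate, read 0.24 on the second SEMA3E 2 h array and 1.36 to 1.70 on all others.

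The sterol transport genes were Stard4, a carrier of cholesterol between membranes, and Npc1, which exports it from lysosomes. Stard4 read -4.45 and -4.20 in the controls, -4.73 and -4.94 at SEMA3E 2 h, -4.03 and -4.15 at SEMA3E 8 h, and -4.20 and -4.38 with cytochalasin D. Its SEMA3E 2 h arrays were the lowest 2 of the 8. SEMA3E 2 h minus control was -0.52 ± 0.25 (limma adjusted p = 0.527), and SEMA3E 8 h minus SEMA3E 2 h was 0.75 ± 0.25 (limma adjusted p = 0.411). The former changed sign in 3 of 21 alternatives, with a highest value of 0.40. A second probe of Stard4, above background on all 8 arrays, gave 1.31 and -0.64 for these, with its SEMA3E 2 h arrays the highest 2 of the 8. For cytochalasin D against control and against SEMA3E 8 h it gave -1.14 and -1.82, where the first probe gave 0.03 and -0.20. Npc1 followed the first probe of Stard4, with -0.65 for SEMA3E 2 h minus control and 0.80 for SEMA3E 8 h minus SEMA3E 2 h. The controls of Npc1 lay 1.02 apart.

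The fatty acid and phosphatidate enzymes numbered 6. Their medians were 0.14, 0.26 and 0.05 for SEMA3E 2 h, SEMA3E 8 h and cytochalasin D against control, -0.32 between the 8 h treatments and 0.01 for SEMA3E 8 h against 2 h. Acaca, which commits acetyl-CoA to fatty acids, ranged from 0.74 to 1.73 over the arrays and was lowest on the SEMA3E 8 h arrays, at 0.74 and 1.11. Its difference between SEMA3E 8 h and 2 h was -0.67 ± 0.27 with an unadjusted limma p of 0.0414. A second probe of Acaca, above background on all 8 arrays, gave -0.23 there and -0.11 for SEMA3E 8 h against control. On that probe the SEMA3E 8 h arrays, at 0.80 and 1.16, overlapped both other groups. Acly, which supplies the acetyl-CoA, was likewise lowest at SEMA3E 8 h, at 1.88 and 1.97, though its second probe was of opposite sign in all 5 comparisons. Fasn, the synthase, the desaturases Scd1 and Scd2, and Lpin1, which makes diacylglycerol, lay lower with cytochalasin D than with SEMA3E at 8 h. Both arrays lay lower for these genes, as for 32.7% of all genes, with differences of -0.30 to -0.73. The largest of these was Scd1, at -2.25 and -2.14 against -2.47 and -3.38. Fasn and Lpin1, at -0.49 and -0.34, had mean levels below -4, where the median of all genes was -0.38. The plot of differences shows both 8 h comparisons gene by gene.

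**Figure D5:**
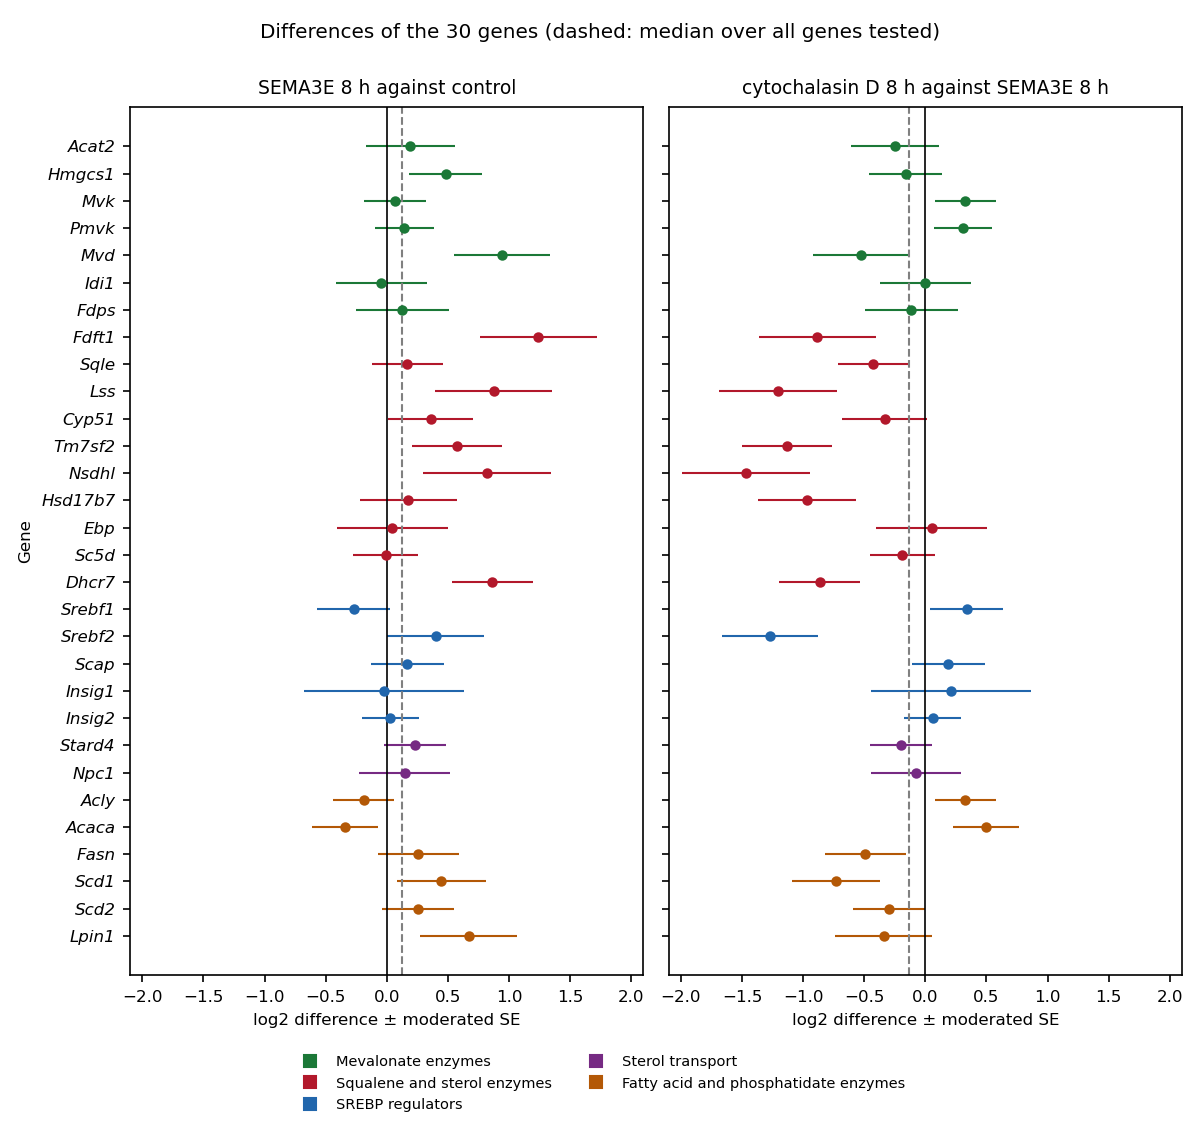
Log2 difference ± moderated SE of each of the 30 genes in SEMA3E 8 h against control (left) and cytochalasin D 8 h against SEMA3E 8 h (right), coloured by role group, with the median of all genes dashed at 0.12 and -0.13. In the right panel 9 of 10 sterol enzymes and Srebf2 lie below 0, and Acaca, Acly, Mvk and Pmvk above it. Second probes of Acly and Mvk, not plotted, lay below 0 there. No gene passed the adjusted threshold.

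The spread between replicates was large for some members and differed between groups. Replicate 2 minus replicate 1 had a median over the 30 genes of 0.23 in control, 0.20 at SEMA3E 2 h, 0.07 at SEMA3E 8 h and -0.13 with cytochalasin D, where all genes had 0.07, 0.13, 0.10 and -0.05. More than 2-fold between replicates were 4 members in control, 2 at SEMA3E 2 h, 1 at SEMA3E 8 h and 2 with cytochalasin D. That was 13.33%, 6.667%, 3.333% and 6.667% of the members, beside 14.24%, 14.17%, 9.659% and 8.755% of all genes. The largest among the members were Insig1 in control at 1.97, Ebp at SEMA3E 2 h at -1.41, Insig1 at SEMA3E 8 h at 1.17 and Nsdhl with cytochalasin D at -1.39. Probes of 1 gene also differed: among the 10 members with several tested probes, all probes had the same sign in 6 for SEMA3E 2 h against control, 9 for SEMA3E 8 h against control, 5 for cytochalasin D against control, 7 between the 8 h treatments and 7 for SEMA3E 8 h against 2 h.

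Other genes of sterol and SREBP biology, 18 listed and 18 tested, held none that was called, and their medians lay between -0.07 and 0.10. Between the 8 h treatments 10 of the 18 lay below 0 and 8, or 44.44%, above it, where 39.73% of all genes lay above. The median was -0.07, beside -0.13 for all genes and -0.88 for the 10 sterol enzymes among the members. Msmo1, a sterol methyl oxidase, was -0.85 ± 0.34 there (limma adjusted p = 0.449), with both cytochalasin D arrays below both SEMA3E arrays. Soat1, which esterifies cholesterol for storage, was 1.76 ± 0.43 in SEMA3E 8 h against 2 h (limma adjusted p = 0.373), with 1 of its 2 h arrays above background.

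Of 23 other fatty acid and glycerolipid genes 22 were tested and none was called. Fads2, a desaturase of polyunsaturated fatty acids, was 1.98 ± 0.58 in SEMA3E 8 h against 2 h (limma adjusted p = 0.404). Gpam, which starts glycerolipid synthesis, was above background on neither SEMA3E 2 h array and was at least 1.82-fold higher at SEMA3E 8 h, taking the lowest detected signal as the floor on the 2 h arrays where it was the higher (limma adjusted p = 0.411). Between the 8 h treatments Acsl4, an acyl-CoA synthetase, was 1.04 ± 0.39 (limma adjusted p = 0.445), and Fads3 was -1.81 ± 0.55 (limma adjusted p = 0.418), with 1 of its cytochalasin D arrays above background. Of 7 LXR and sterol efflux genes 5 were tested and none was called, with medians from -0.25 to 0.50. Scarb1, the receptor for high density lipoprotein, was 1.22 ± 0.59 in SEMA3E 8 h against 2 h (limma adjusted p = 0.445). All 10 fatty acid oxidation genes were tested and none was called, with medians from -0.12 to 0.12. Acadl, a long chain dehydrogenase, was 1.31 ± 0.45 in the same comparison (limma adjusted p = 0.411).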

How the data were processed

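RNA levels were measured in 8 samples, 2 per group, grouped by the labels' titles. Per the file headers, the authors deposited scanner files made with Agilent Feature Extraction 11.5.1.1, whose processed signal is a linear intensity, background-subtracted and not scaled between arrays. The authors also deposited a table with 1 intensity per gene name, not scaled between arrays, whose rule for combining probes is not given in the sources used here. The headers name build mm9 but give no position for the probes used.

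Control spots (1439 of 62976) were left out, outlier spots were set to missing (0 were spots of the 30 genes), and repeated spots were averaged. Log2 signal was scaled to each array's 75th percentile over 18687 probes well above background on all 8 arrays. Probes above background on both arrays of at least 1 group were tested, 24667 probes of 18025 genes, and the brightest probe stood for a gene. limma 3.58.1 (R 4.3.3) estimated 4 group means from the 8 arrays, with 4 residual and 3.40 prior degrees of freedom, two-sided. The threshold was a Benjamini-Hochberg adjusted p under 0.05. The fit was tested on simulated data. Motif search and figures used Python 3.11.15 and matplotlib 3.10.9. With 2 arrays per group, the number of arrays limits the precision of every value.

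Members, role groups, the lists of other genes and the naming rule were chosen with earlier results of these data known. By that rule, in each comparison the 4 members with the smallest unadjusted p, and the SREBP regulators, were given with every array's value. From each other list at most 2 genes per comparison, those with the smallest p, could be named. Adjusted p-values are over all genes. The alternatives were other background corrections, scales, filters, ways to combine probes, fits and leaving out each array in turn. Changes of fit, and leaving out an array of neither group compared, cannot move a difference. The other filters and keeping outlier spots changed the sign of 0 of the 150 results of a member in a comparison. The medians of role groups under these alternatives were added after seeing the data. Of the 46 probes, 43 matched RefSeq with the same symbol and 3 were unmatched.

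Same-numbered replicates were checked for pairing: the correlation of their deviations from the group means lay between -0.15 and 0.14 over the 6 pairs of groups, so the numbers were not taken to pair the samples.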

Additional observations from a re-analysis of the deposited data

How the results depend on the processing

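Calls over all genes depended on the processing, while in 150 results of a member in a comparison 1 call appeared in any of 21 alternatives: Acat2 in SEMA3E 2 h against control after normexp, at 0.84 (limma adjusted p = 0.0485), where 3450 of all genes passed. In SEMA3E 2 h against control, 18 genes passed when scaled by the median of all probes, 20 in the deposited table, and 0 to 417 when an array was left out, the last without SEMA3E 2 h replicate 1. In SEMA3E 8 h against control the 1 call became 0 with normexp, quantile normalization or both, the median of all probes, no filter, a filter on all 8 arrays, an intensity trend, or only the 2 groups fitted, and 2 when probes of a gene were averaged, 13 in the deposited table, 7 with replicate numbers entered as a block, and 0 to 2 when an array was left out. In cytochalasin D 8 h against control, 2 passed with the median of all probes, 9 in the deposited table and 0 to 1 without an array. Between the 8 h treatments the 1 call became 0 with quantile normalization, alone or after normexp, the 75th percentile of all probes, no filter, a filter on all 8 arrays, outlier spots kept, the replicate block, only the 2 groups fitted, or any array left out (0 to 0), and 7 with the median of all probes and 13 in the deposited table. In SEMA3E 8 h against 2 h, 35 passed with the median of all probes, 20 in the deposited table, and 0 to 460 without an array, the last again without SEMA3E 2 h replicate 1. The cause was not tested. The block changed no other call.

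The median over the 30 genes moved by more than the spread between replicates under the settings named here, and its range without an array is given beside them. For SEMA3E 2 h against control it was 0.30 with normexp, -0.48 with the median of all probes, 0.27 in the deposited table and 0.026 to 0.34 without an array. For SEMA3E 8 h against control it was -0.033 with the 75th percentile of all probes, -0.98 with their median and 0.19 to 0.39 without an array. For cytochalasin D 8 h against control it was 0.14 with normexp, -0.15 with the median of all probes and -0.10 to 0.12 without an array. Between the 8 h treatments it was -0.11 with normexp, 0.026 with the 75th percentile of all probes, 0.76 with their median, and it stayed within that spread, at -0.28 to -0.17, without an array. For SEMA3E 8 h against 2 h it was -0.074 with normexp, 0.059 with quantile normalization, -0.017 with both, -0.022 with the 75th percentile of all probes, -0.33 with their median and 0.077 to 0.28 without an array. The 2 percentile scales shift all genes alike by construction. Of the 150 results, 33 kept their sign in all 21 alternatives, some of which cannot move a difference. Signals of dim probes near background limit what 2 arrays per group can show.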

Other observations

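The authors' deposited table treated members with 1 probe and with several unlike. For all 17 members with 1 probe the table lay within 1% of the scanner signal on all 8 arrays. Of the 13 with several probes, 2 did so on all 8 arrays and 6 on some arrays only. For Hmgcs1 the table was 0.0407 of the signal of the brightest probe on control replicate 1 and within 1% of it on the other 7 arrays. For Tm7sf2 the ratio ran from 0.268 to 1 over the arrays, and for Nsdhl from 0.404 to 1.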
